A study of Mus musculus with 4 samples.

Results

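Broad domains of histone H3 phosphorylated at serine 10 (H3S10ph) were described in mouse gastrocnemius muscle, immediately after eccentric contractions and at rest. A domain was a deposited peak wider than 2000 bp, and 501 of the 93418 peaks in the 4 lists met this rule. The domains were thus chosen by their width, so the widths below describe them and were not tested. H3S10ph had been mapped by ChIP-seq, in which chromatin is precipitated with an antibody to the modified histone and its DNA is sequenced. There were 2 stimulated and 2 unstimulated samples, each with its own list of peaks. Each sample was a pool of gastrocnemius muscles from 6 male C57BL/6 mice at 5 months of age. Stimulated muscles had performed 50 eccentric contractions under anaesthesia, with tetani of 600 ms at 100 Hz every 30 s, while unstimulated muscles were the resting contralateral ones of stimulated mice. Frozen whole muscle was used, so nuclei of fibres and of other cells are mixed, and more marked nuclei cannot be told apart from more mark per nucleus. Values of single mice cannot be given, since the mice were pooled. The lists hold positions and the peak caller's fold enrichment over input, but no read counts, so the depth behind a domain is unknown.

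The tail of histone H3 carries serine 10 beside lysines that can be methylated or acetylated. In dividing cells the mark covers condensed chromosomes, whereas in resting cells stress and growth signals place it on a limited set of genes through the MAP kinase pathway and the kinases MSK1 and MSK2. Immediate early genes such as *Fos* and *Jun* are the best known of these, and they code for transcription factors that respond within minutes and need no new protein for it.

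Sequences are shown first from domains on genes and then from domains on repeated DNA, since the lists differed most in their shares of these. The stretch common to the *Fos* domains of both stimulated lists spans chr12:85474006-85477267 of mm10 (3262 bp). Its middle, at chr12:85475537-85475736 on the plus strand, holds the exon that codes for the basic, DNA-binding region of the Fos protein. For *Gadd45g*, a stress response gene, the common stretch was chr13:51847041-51848902 (1862 bp), and the 200 bases nearest to its middle without UTR bases, at chr13:51847777-51847976 on the plus strand, were read. Coding bases are in capitals and intron bases in lower case, and 108 of 200 bases are coding in each.
Fos domain: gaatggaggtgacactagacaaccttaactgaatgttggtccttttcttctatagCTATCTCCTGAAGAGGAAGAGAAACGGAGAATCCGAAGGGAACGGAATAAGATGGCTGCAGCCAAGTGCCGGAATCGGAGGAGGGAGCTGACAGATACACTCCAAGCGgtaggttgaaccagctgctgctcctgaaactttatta
Gadd45g domain: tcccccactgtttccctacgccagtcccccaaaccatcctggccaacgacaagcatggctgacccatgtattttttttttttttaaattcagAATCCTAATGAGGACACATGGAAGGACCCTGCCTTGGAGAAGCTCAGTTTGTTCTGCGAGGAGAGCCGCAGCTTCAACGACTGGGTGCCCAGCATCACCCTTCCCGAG

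Repeated DNA is shown from an array of near-identical copies on chromosome 5, between 14946618 and 15690942. It held 31 loci, and a locus here is a stretch of genome joined from the overlapping domains of any lists. The following 100 bases come from a locus at which all 4 lists had a domain (chr5:15679643-15679742, plus strand of mm10). Of the 30 other loci of the array, 4 held a stretch at least 90% identical to it, and 2 of these matched it base for base. The remaining pair differed at 1 base each, which is in capitals. They lie at chr5:14996006-14996105, where both unstimulated lists had a domain, and at chr5:15052628-15052727, where 3 lists had one.
array, 4 lists: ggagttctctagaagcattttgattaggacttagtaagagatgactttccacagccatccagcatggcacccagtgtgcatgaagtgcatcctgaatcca
array, 2 lists: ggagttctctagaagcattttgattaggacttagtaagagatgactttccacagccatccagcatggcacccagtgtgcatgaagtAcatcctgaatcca
array, 3 lists: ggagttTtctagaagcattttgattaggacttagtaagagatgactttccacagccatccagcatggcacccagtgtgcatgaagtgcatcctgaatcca

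Promoters are shown for 4 of the genes that 1 domain covered for at least 90%, and *Jun*, *Lsm7* and *Tcap*, which also were, are not shown. They are shown because the domains mostly began downstream of them. Each is the 250 bases before the RefSeq start of the gene on GRCm38.p6, the assembly behind mm10. The windows are chr12:85473640-85473889 (plus strand) for *Fos*, chr13:51846425-51846674 (plus strand) for *Gadd45g*, chr8:123894776-123895025 (minus strand) for *Acta1* and chr5:135887669-135887918 (plus strand) for *Hspb1*. Capitals mark 4 motifs searched on both strands, none of which overlapped another in these windows. They are the TATA box written TATAAA, the core of the site of CREB and ATF factors written TGACG, a unit of the heat shock element written GAANNTTC, and the CArG box, which is the site of SRF. On the other strand TGACG reads CGTCA, as in the *Hspb1* window. No base of the *Fos*, *Gadd45g* and *Acta1* windows lay in a domain of any list, whereas all 250 bases of the *Hspb1* window lay in its domain in stimulated replicate 2.
Fos promoter: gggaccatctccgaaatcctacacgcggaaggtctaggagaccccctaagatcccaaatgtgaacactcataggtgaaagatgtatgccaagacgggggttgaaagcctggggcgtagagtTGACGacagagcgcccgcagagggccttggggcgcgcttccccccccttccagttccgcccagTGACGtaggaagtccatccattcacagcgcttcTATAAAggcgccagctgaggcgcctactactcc
Gadd45g promoter: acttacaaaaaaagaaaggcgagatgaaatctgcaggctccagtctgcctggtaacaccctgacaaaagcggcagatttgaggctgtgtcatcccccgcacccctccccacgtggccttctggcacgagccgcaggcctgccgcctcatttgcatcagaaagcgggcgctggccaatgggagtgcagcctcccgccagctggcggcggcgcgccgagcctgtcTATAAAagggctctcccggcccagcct
Acta1 promoter: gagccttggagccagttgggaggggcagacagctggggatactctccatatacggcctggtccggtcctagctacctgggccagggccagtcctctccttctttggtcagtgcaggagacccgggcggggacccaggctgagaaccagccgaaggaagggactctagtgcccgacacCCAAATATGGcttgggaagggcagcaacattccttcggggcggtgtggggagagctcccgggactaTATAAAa
Hspb1 promoter: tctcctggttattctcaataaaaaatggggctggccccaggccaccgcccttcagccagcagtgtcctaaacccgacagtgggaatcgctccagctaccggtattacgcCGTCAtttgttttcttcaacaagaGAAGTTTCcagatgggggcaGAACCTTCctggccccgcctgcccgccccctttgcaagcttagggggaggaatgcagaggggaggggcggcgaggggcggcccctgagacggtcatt

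Among all 32851 promoter windows of this length, 12.4% held TATAAA, 17.8% TGACG, 6.69% GAANNTTC and 1.47% a CArG box. Counted by gene, with a match in any of its windows, the shares were 14.3%, 19.8%, 7.73% and 1.62% of 27025 genes. Of the 18 protein-coding genes with a domain in both stimulated lists, 13 had windows in the table, 17 windows in all. Counted by gene, TATAAA was found in 5 of these genes (*Acta1*, *Fos*, *Gadd45g*, *Myh4* and *Ugt3a1*), TGACG in *Fos* and *Nr4a1*, a CArG box in *Acta1* and *Myh4*, and GAANNTTC in *Jun*. These are matches of letters and do not show that a factor binds there. Bases further upstream than these windows were not searched, so a gene without a match, such as *Fos* for the CArG box, is not shown to lack the site.

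Domains were few in every list and differed in number between replicates. There were 85 of 9094 peaks in unstimulated replicate 1, 105 of 32740 in unstimulated replicate 2, 63 of 10901 in stimulated replicate 1 and 248 of 40683 in stimulated replicate 2. As shares of the peaks these are 0.935%, 0.321%, 0.578% and 0.610%. The mean was 155.5 ± 131 domains (SD, n = 2) after stimulation and 95.0 ± 14.1 (SD, n = 2) without, and the groups overlapped (exact permutation test, two-sided p = 1). The smallest p that 2 samples against 2 allow is 0.33, so no comparison of conditions here can pass a threshold of 0.05. The number of domains therefore gave no separation of the conditions, and what lay under the domains differed more.

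The domains spanned 328421, 302588, 203879 and 653544 bp in the same order of lists. Their median width was 3044 bp in unstimulated replicate 1, 2409 bp in unstimulated replicate 2, 2545 bp in stimulated replicate 1 and 2279 bp in stimulated replicate 2. The narrowest domains were 2020, 2003, 2005 and 2002 bp wide, and the widest peaks just outside the rule were 1989, 1995, 2000 and 1999 bp. The widest domain of each list measured 14263, 9025, 8173 and 8870 bp. Unstimulated replicate 1 thus had the widest domain of all and the highest median. Enrichment within domains was modest, with a median fold over input of 2.39, 2.16, 2.34 and 2.14, against 2.25, 2.09, 2.27 and 2.09 over all peaks of each list. A −log10 p of at least 3 was reached by 49, 33, 34 and 33 domains (57.6%, 31.4%, 54.0% and 13.3%). Over all peaks the shares were 12.9%, 2.93%, 17.7% and 3.22%. A −log10 q of at least 1.3 was reached by 13, 3, 2 and 3 domains (15.3%, 2.86%, 3.17% and 1.21%). Over all peaks these shares were 0.308%, 0.0611%, 0.128% and 0.0713%. Both shares of domains were lowest in stimulated replicate 2.

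**Figure D1:**
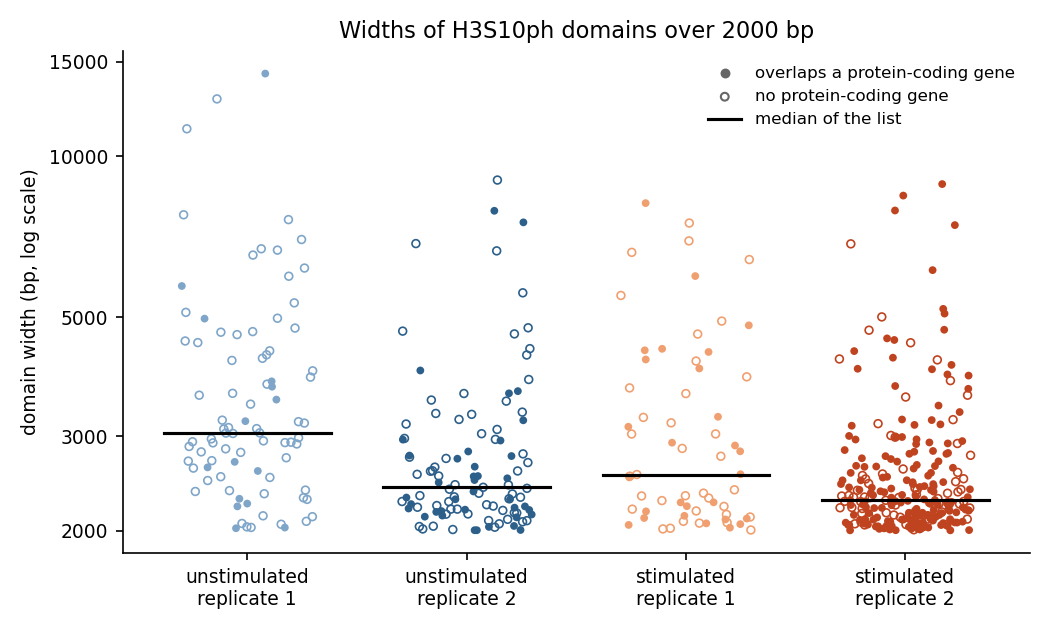
Width of each domain in bp (log scale) by list. Filled points overlap a protein-coding gene, open points do not, and the black bar is the median, which lies between 2279 bp in stimulated replicate 2 and 3044 bp in unstimulated replicate 1.

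Unstimulated replicate 1 stood apart from the other lists. Chromosome X held 20 of its 85 domains, against 1 in each other list, and 27 lay in the array on chromosome 5. The array held 13, 12 and 5 domains in unstimulated replicate 2, stimulated replicate 1 and stimulated replicate 2. A further 8 domains of unstimulated replicate 1 sat within chr8:53567026-53670374, where no other list had any. Stimulated replicate 2 stood apart in the other direction, with the most domains and the fewest on repeated sequence. The shares of domains on genes or starts, and of domain bases in genes and exons, are also given below without each of these lists.

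The share of domains on protein-coding genes was higher in each stimulated list than in either unstimulated one. It was 17.6% in unstimulated replicate 1 (15 of 85), 37.1% in unstimulated replicate 2 (39 of 105), 42.9% in stimulated replicate 1 (27 of 63) and 71.4% in stimulated replicate 2 (177 of 248). The means were 57.1 ± 20.2% in stimulated and 27.4 ± 13.8% in unstimulated muscles (SD, n = 2). The difference of 29.7 percentage points had an exact permutation p of 0.33 (two-sided), the smallest possible. It was 20.0 points without unstimulated replicate 1 and 15.5 points without stimulated replicate 2. Among all peaks of the lists the share on genes was 45.6%, 44.4%, 46.5% and 56.0%. Domains were thus less often on genes than the peaks of their own list in 3 lists, and more often in stimulated replicate 2.

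The order of the lists was the same by bases. Of the bases in domains, 11.8%, 33.4%, 37.3% and 67.9% lay inside protein-coding genes, and such genes make up 38.17% of the chromosomes. Exons held 2.02%, 11.5%, 20.8% and 18.8% of the domain bases, against 4.26%, 4.78%, 5.69% and 7.51% of the bases of all peaks and 3.523% of the chromosomes. Exonic bases were therefore 19.8 ± 1.40% of the domains in stimulated and 6.77 ± 6.72% in unstimulated muscles (SD, n = 2). The groups did not overlap, and the exact permutation p was again 0.33 (two-sided). The difference of 13.1 points was 8.31 without unstimulated replicate 1 and 14.05 without stimulated replicate 2. For bases in genes the difference of 30.0 points was 19.2 and 14.7 without these lists. An annotated transcription start lay in 3.53%, 3.81%, 9.52% and 17.3% of the domains, against 0.693%, 1.28%, 1.71% and 2.98% of all peaks. Domains are by rule wider than the other peaks and so hold a start more readily. These shares were not corrected for width. For starts the difference between conditions of 9.76 points was 9.62 without unstimulated replicate 1 and 5.85 without stimulated replicate 2. Most domains that touched a gene held neither its start nor its end, namely 66.7%, 79.5%, 66.7% and 78.0%.

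Domains on repeated sequence made up most of unstimulated replicate 1 and few of stimulated replicate 2. Another copy elsewhere in the genome, at least 90% identical over at least 50% of the domain, was found for 51 of 83 searched domains in unstimulated replicate 1. It was found for 27 of 99 in unstimulated replicate 2, 21 of 59 in stimulated replicate 1 and 10 of 247 in stimulated replicate 2. These are 61.4%, 27.3%, 35.6% and 4.05%, against 6.51%, 3.99%, 5.06% and 2.24% of all peaks. In each list the domains were thus richer in copies than its peaks as a whole. The median share of bases masked as repeats was 30.4%, 24.7%, 22.4% and 18.6%, and the median GC content was 38.3%, 43.4%, 45.3% and 46.8%. Among domains without a copy, 34.4%, 44.4%, 63.2% and 73.4% lay on genes. These averaged 68.3 ± 7.25% in stimulated and 39.4 ± 7.12% in unstimulated muscles (SD, n = 2, exact permutation test, two-sided p = 0.33), so the difference was of about the same size, 28.9 points, without the repeated domains. It was 23.8 points without unstimulated replicate 1 and 23.7 without stimulated replicate 2. According to the methods, reads that map to several places had been removed, and how this shaped the domains on copies was not tested.

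**Figure D2:**
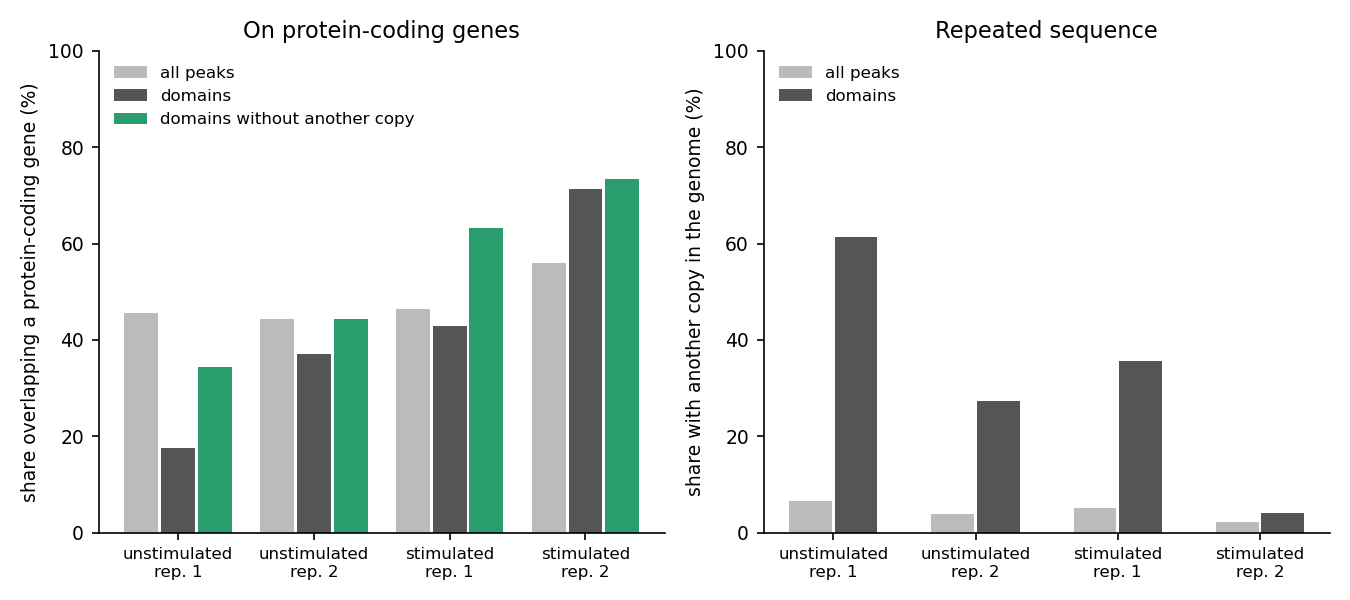
Share of peaks or domains in percent, by list. Left, the share overlapping a protein-coding gene for all peaks, domains and domains without another copy, which reaches 71.4% of the domains in stimulated replicate 2. Right, the share with another copy in the genome, which falls from 61.4% of the domains in unstimulated replicate 1 to 4.05% in stimulated replicate 2.

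A domain lay on 11 protein-coding genes in unstimulated replicate 1, 34 in unstimulated replicate 2, 25 in stimulated replicate 1 and 169 in stimulated replicate 2. Of the 21938 genes tested these are 0.0501%, 0.155%, 0.114% and 0.77%, which is the background for the gene lists below. A longer gene overlaps a domain more readily, and this background was not matched to the lists for gene length. Altogether 207 genes had a domain in some list, 166 of them in stimulated lists only, 31 in unstimulated lists only and 10 in both conditions. Of the 166, 155 had a domain in 1 stimulated list and 11 in both, and most therefore rest on stimulated replicate 2.

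The immediate early genes, which are switched on within minutes of a stimulus, had domains in stimulated lists only. Of 43 such genes, none had a domain in either unstimulated list, 5 (11.6%) had one in stimulated replicate 1 and 10 (23.3%) in stimulated replicate 2. The 5 were *Egr1*, *Fos*, *Gadd45g*, *Jun* and *Nr4a1*, and they also had one in stimulated replicate 2. There the list was completed by *Dusp1*, *Ier2*, *Zfp36*, *Per1* and *Per2*. A narrower peak was not absent at rest, since 1 and 9 of the 43 genes had a peak of any width in the unstimulated lists, against 12 and 26 in the stimulated ones. Over all genes, 11.94%, 31.22%, 16.05% and 42.32% had a peak of any width in the 4 lists. The AP-1 family, whose proteins pair to bind DNA, had domains on *Fos* and *Jun* in both stimulated lists (2 of 11 genes, 18.2%) and on none in the unstimulated lists. These lists share genes and were drawn up with results on *Fos* and *Jun* in these samples known.

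*Fos* (ENSMUSG00000021250.13, chr12:85473890-85477273, plus strand) codes for a subunit of AP-1. Its largest peak covered 96.4% of the gene in stimulated replicate 1 and 98.7% in stimulated replicate 2, where the domains were 3262 and 4205 bp wide with a fold of 4.22 and 4.55. Unstimulated replicate 1 had no peak on the gene, while in unstimulated replicate 2 a narrower one, 1437 bp wide, covered 42.5% of it with a fold of 2.27. The stimulated domains began 116 and 44 bp after the annotated start. The former ended 6 bp before the end of the gene and the latter 865 bp beyond it. The gene body was thus covered and the promoter shown above was not.

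*Jun* (ENSMUSG00000052684.4, chr4:95049034-95052222, minus strand), the partner of *Fos* in AP-1, had no peak in either unstimulated list. Its domains covered 69.6% of the gene in stimulated replicate 1 and 94.8% in stimulated replicate 2, with widths of 2221 and 3679 bp and folds of 2.38 and 3.06. They began 212 and 165 bp after the start. *Gadd45g* (ENSMUSG00000021453.2, chr13:51846678-51848468, plus strand) likewise had no unstimulated peak. Its stimulated domains of 2131 and 2234 bp covered 94.8% and 79.7% of it and ran 434 and 806 bp past its end. *Nr4a1* (ENSMUSG00000023034.7, chr15:101254269-101274795, plus strand), which codes for an orphan nuclear receptor, was the remaining gene with a domain in both stimulated lists and no unstimulated peak. Its annotation is longer, at 20527 bp, and its largest domain covered 20.3% and 21.1% of it, beginning 15913 and 7563 bp after the annotated start. *Egr1* (ENSMUSG00000038418.7), a zinc finger transcription factor gene, was covered for 77.4% and 71.7% by stimulated domains of 4369 and 4001 bp, against no peak and a peak of 315 bp (6.10%) at rest.

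Some genes reached the width of a domain in stimulated replicate 2 alone. *Ier2* was covered for 60.5% there by a domain of 2242 bp and for 47.2% by a peak of 718 bp in stimulated replicate 1. *Zfp36*, whose protein speeds the decay of short-lived mRNAs, was covered for 60.5% in stimulated replicate 2 and had no peak in the other 3 lists. *Cebpd*, a transcription factor gene outside the list that was named for its cover, was covered for 59.2% by a domain of 2350 bp there and for 10.2% by a narrower peak in stimulated replicate 1, with no unstimulated peak.

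Genes of the sarcomere, the contractile unit of the fibre, had domains in both conditions. Of 67 such genes, 1, 3, 4 and 10 had a domain in unstimulated replicates 1 and 2 and stimulated replicates 1 and 2, or 1.49%, 4.48%, 5.97% and 14.9%. *Acta1*, *Myh4* and *Ttn* had domains in 3 lists, all but unstimulated replicate 1. *Xirp1* had domains in both stimulated lists. *Flnc*, *Mybph*, *Tcap*, *Tnni2* and *Trim63* were among those with domains in stimulated replicate 2 alone.

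*Acta1* (ENSMUSG00000031972.5, chr8:123891769-123894751, minus strand) codes for skeletal muscle alpha-actin. It was covered for 90.01% in unstimulated replicate 2, 53.6% in stimulated replicate 1 and 60.8% in stimulated replicate 2, by domains of 3608, 2098 and 2381 bp, and had no peak in unstimulated replicate 1. The widest cover was thus at rest, and the folds were alike, at 2.62, 2.58 and 2.56. *Myh4* (ENSMUSG00000057003.12, chr11:67238029-67260446, plus strand), the gene of fast myosin heavy chain IIB, had its largest peak over 4.03% of the gene in unstimulated replicate 1. The largest domain covered 33.6%, 19.4% and 39.6% of it in the other lists, at widths of 7524, 4341 and 8870 bp, the last being the widest domain of stimulated replicate 2. These began 11703, 15216 and 12551 bp after the start of the gene, which is 22418 bp long. Stimulated replicate 2 had another domain of 2088 bp further upstream, at chr11:67244428-67246515.

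*Ttn* (ENSMUSG00000051747.14, chr2:76703980-76982547, minus strand) codes for titin, the giant spring protein of the sarcomere. It held 0, 4, 5 and 8 domains in the 4 lists, and peaks of any width covered 1.44%, 14.7%, 10.6% and 24.4% of it. The widest was at chr2:76706985-76715426 in stimulated replicate 2 (8442 bp), where unstimulated replicate 2 and stimulated replicate 1 had domains of 3642 and 2918 bp. The widest at rest, at chr2:76744826-76752733 in unstimulated replicate 2 (7908 bp), was 100.0% exonic, and a domain lay at the same place in both stimulated lists. At chr2:76914048-76919234, by contrast, the stimulated lists had domains of 2258 and 5187 bp while each unstimulated list had 1 narrower peak.

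*Xirp1* (ENSMUSG00000079243.3, chr9:120013755-120023598, minus strand) codes for the Xin repeat protein of the ends of muscle fibres, a binder of actin. Stimulated domains of 5973 and 6127 bp covered 56.6% and 56.97% of it. No peak was listed in unstimulated replicate 1, and the larger peak of unstimulated replicate 2 was 1288 bp wide and covered 13.1%. The annotation of *Cx3cr1*, a chemokine receptor of immune cells, spans *Xirp1*, so the same domains also count for *Cx3cr1*. *Ankrd23*, an ankyrin repeat gene that responds to stretch, was covered for 21.8% and 56.5% by stimulated domains of 2063 and 4010 bp, against 4.50% in unstimulated replicate 2 and no peak in unstimulated replicate 1. *Tcap*, the gene of the titin cap protein, reached 91.9% in stimulated replicate 2 with a fold of 4.19. Its peaks in unstimulated replicate 2 (57.7%, 1264 bp) and stimulated replicate 1 (84.3%, 1930 bp) missed the width rule, and unstimulated replicate 1 had none.

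**Figure D3:**
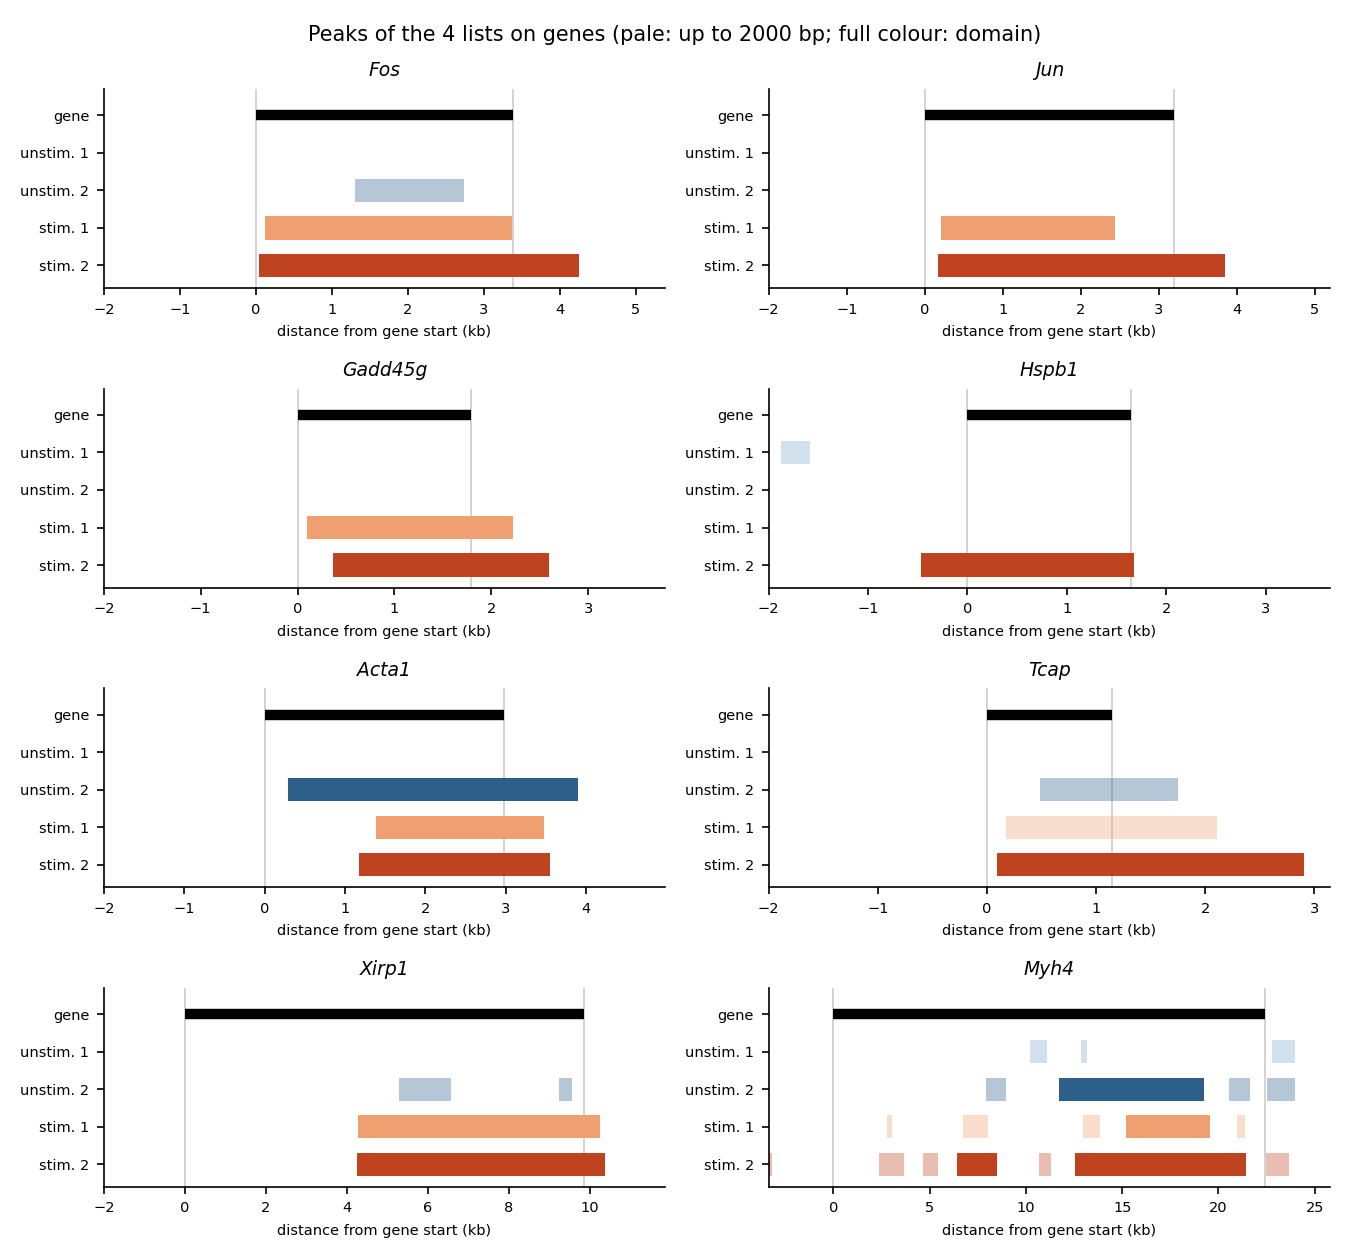
Peaks of the 4 lists on 8 genes, as distance in kb from the annotated gene start in the direction of transcription. The black bar is the gene, full colour a domain and pale colour a peak of up to 2000 bp. *Fos* was covered for 96.4% and 98.7% in the stimulated lists, and *Acta1* for 90.01% in unstimulated replicate 2.

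SRF targets, the genes bound by serum response factor, had 0, 1, 3 and 4 of 30 genes with a domain, or 0%, 3.33%, 10.0% and 13.3%. They were *Acta1*, *Egr1*, *Fos* and *Ier2*, each of which is also on a list above. In 3 further lists only stimulated replicate 2 had domains. Excitation-contraction coupling had 2 of 27 genes in stimulated replicate 2 and none elsewhere. These were *Ryr1*, the calcium release channel, and *Pvalb*, a calcium buffer of fast fibres, which held 2 domains over 32.5% of the gene. Domains were also found there for *Per1* and *Per2* of 19 circadian clock genes, and for *Pik3r1*, a subunit of PI3-kinase, of 31 insulin and mTOR signalling genes. Peaks of any width were found on these lists in both conditions. For comparison, 11.94%, 31.22%, 16.05% and 42.32% of all genes had one in the lists, in the order that follows. In unstimulated replicates 1 and 2 and stimulated replicates 1 and 2 they lay on 3, 12, 8 and 21 of the coupling genes, 6, 13, 6 and 12 of the clock genes and 10, 21, 15 and 27 of the insulin and mTOR genes.

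*Hspb1* (ENSMUSG00000004951.10, chr5:135887919-135889563, plus strand), the gene of the small heat shock protein HSP27, was the only one of 20 chaperone genes with a domain. A domain of 2146 bp in stimulated replicate 2 covered 100.0% of it, from −466 bp relative to its start to 35 bp past its end. No other list had a peak there, so the result rests on 1 list. *Lsm7*, an RNA processing gene covered for 90.9%, and *Zfp36* were also marked in stimulated replicate 2 alone.

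No domain lay on any of 17 myogenic factor genes, 15 mitosis genes, 15 genes of H3S10 kinases and phosphatases, 79 ribosomal protein genes or 1134 olfactory receptor genes, in any list. None lay on 24 genes of other cell types in muscle, of which 1, 7, 5 and 11 had a peak of some width. At the shares of all genes given above, lists of up to 79 genes would hold few or no domains, so their counts show nothing particular to them. Of the 1134 olfactory receptor genes, which are silent in muscle, 32, 79, 21 and 55 had a peak of some width. Of 7 markers that were used to check the tissue, all of them skeletal muscle genes, *Acta1* and *Myh4* had a domain in every list but unstimulated replicate 1, and 3, 5, 5 and 5 had a peak. Of 3 mitotic markers only *Mki67* had a peak, in unstimulated replicate 1 and stimulated replicate 2, and none had a domain. Markers of other cells had no domain either. In stimulated replicate 2, 3 of 3 endothelial markers (*Kdr*, *Cdh5* and *Pecam1*) and 2 of 3 immune markers (*Ptprc* and *Adgre1*) had a peak, against 1 endothelial marker in unstimulated replicate 2 and none in the other lists. Over all genes, 42.32% had a peak in stimulated replicate 2, against 11.94%, 31.22% and 16.05% in unstimulated replicates 1 and 2 and stimulated replicate 1. Counts of so few markers cannot be told apart from these shares. A peak lay on 0, 2, 1 and 1 of 4 fibroblast markers, and on the satellite cell gene *Pax7* in both second replicates. The part of such cells in the domains was not tested.

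Domains over whole genes were found on short genes and mainly after stimulation. A single domain covered at least 90% of no gene in unstimulated replicate 1, of *Acta1* in unstimulated replicate 2, of *Fos* and *Gadd45g* in stimulated replicate 1 and of *Fos*, *Hspb1*, *Jun*, *Lsm7* and *Tcap* in stimulated replicate 2. At least 50% of a gene was covered by 1 domain in 0, 2, 6 and 18 genes, 19 different genes in all. A domain in a stimulated list was found for 18 of these 19 and in an unstimulated list for 3 (*Acta1*, *Plin4* and *Txnip*), and 8 had no unstimulated peak of any width. *Txnip*, a regulator of glucose uptake, was the exception that reached 50% at rest only, with 56.9% in unstimulated replicate 2 against 15.6% and 25.5% in the stimulated lists. *Plin4*, a lipid droplet protein gene, had domains in unstimulated replicate 2 (34.9% of the gene) and in stimulated replicates 1 (22.3%) and 2 (59.8%).

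These domains tended to start inside the gene and to run past its end. Of the 18 genes covered for at least 50% in stimulated replicate 2, the domain began after the annotated start in 15 and reached past the annotated end in 13. The median was 434.5 bp after the start and 499.5 bp past the end. In stimulated replicate 1 the domain began after the start in 6 of 6 and reached past the end in 4 of 6, and in unstimulated replicate 2 both held for 2 of 2. The genes were 1143 to 9844 bp long, and a domain can cover most of a gene only if the gene is short. For comparison, the median gene with a domain in stimulated replicate 2 was covered for 4.09% by it.

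**Figure D4:**
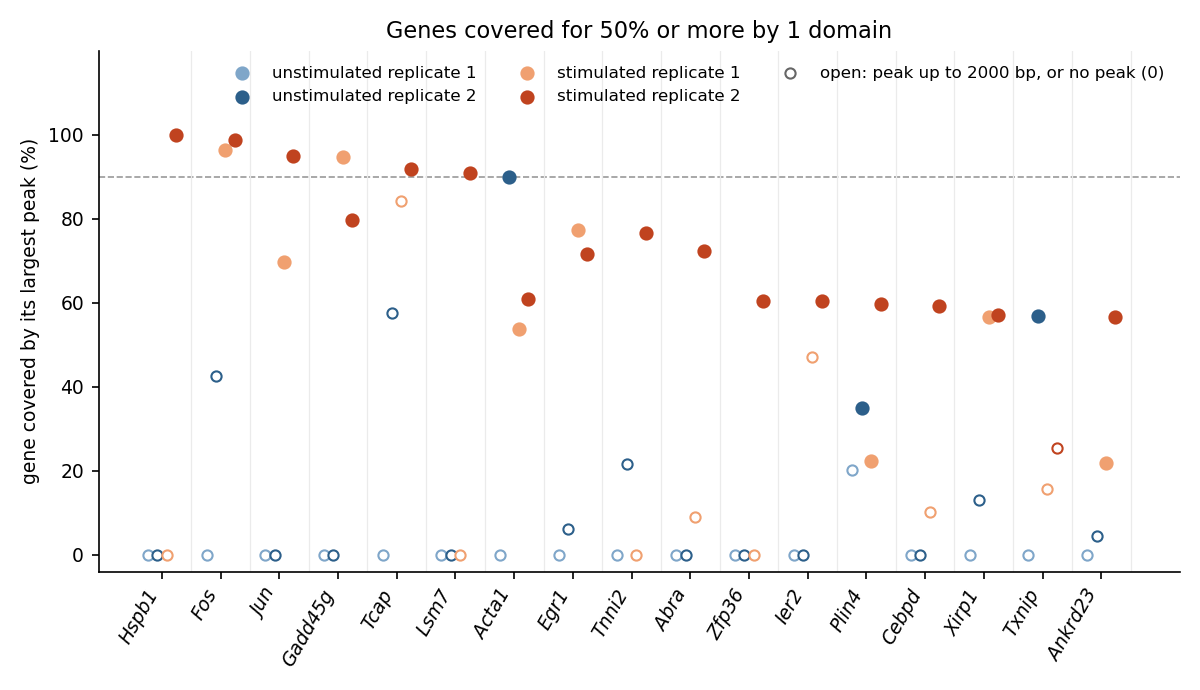
Percent of each gene covered by its largest peak, for the genes reported here that 1 domain covered for at least 50% in some list. Filled points are domains, open points peaks of up to 2000 bp or no peak (0), and the dashed line is 90%. In 6 genes a stimulated list passes the line, and for *Acta1* unstimulated replicate 2 does.

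Sharing between replicates depended on the rule used. A peak of any width in the other unstimulated list overlapped 63.5% of the domains of unstimulated replicate 1 and 30.5% of those of unstimulated replicate 2. Between the stimulated lists, 69.8% of the domains of replicate 1 and 20.2% of those of replicate 2 had a peak in the other. The mean was 47.0% at rest and 45.0% after stimulation, but 23.3% and 46.6% among domains without another copy, and 50.7% and 73.2% among peaks with −log10 p of 3 or more. Across conditions, 77.8% of the domains of stimulated replicate 1 overlapped a peak of unstimulated replicate 2, which is more than overlapped one of stimulated replicate 2. The peaks of the second replicates cover 0.632% (unstimulated) and 0.850% (stimulated) of the genome, and those of the first replicates 0.176% and 0.207%. The part of this in the overlaps was not tested. Of all peaks of stimulated replicate 1, whatever their width, 4.25% overlapped unstimulated replicate 2 and 4.19% stimulated replicate 2, far below the shares for domains, which are also wider.

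Domains without any overlapping peak in another list numbered 19 of 85, 46 of 105, 7 of 63 and 182 of 248. In stimulated replicate 2 this is 73.4% of the domains, 131 of them on genes, and these rest on that list alone. Domains with a peak in every other list numbered 31, 24, 22 and 18.

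The 501 domains merged into 417 loci, of which 245 had domains in stimulated lists only, 137 in unstimulated lists only and 35 in both. The order turned to 30 against 42 for widths over 3000 bp, to 24 against 47 for peaks with −log10 p of 3 or more and to 34 against 143 without stimulated replicate 2. On protein-coding genes lay 171 of the stimulated-only loci (69.8%), 38 of the unstimulated-only loci (27.7%) and 13 of the shared ones (37.1%). For loci of 1 list this was 10 of 61 in unstimulated replicate 1 and 28 of 70 in unstimulated replicate 2. It was 7 of 22 in stimulated replicate 1, a lower share than in unstimulated replicate 2, and 154 of 212 in stimulated replicate 2. Among loci of 1 list the higher stimulated share thus rests on stimulated replicate 2. Most loci came from 1 list, since 212 of the stimulated-only loci were in replicate 2 alone. No peak of any width was found in the other condition at 206 of the stimulated-only and 78 of the unstimulated-only loci.

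Loci seen in both lists of a condition were fewer and more distinct. Domains in both stimulated lists and in no unstimulated list were found at 11 loci, 10 of them on protein-coding genes, with no copy in the genome for any of the 11. Among them were *Fos*, *Jun*, *Egr1*, *Gadd45g*, *Nr4a1*, *Xirp1*, *Ankrd23*, 2 places in *Ttn*, and 1 place in the noncoding *Neat1*. At 3 of them, on *Jun*, *Gadd45g* and *Nr4a1*, neither unstimulated list had a peak. The median GC content of these loci was 53.9%. Domains in both unstimulated lists and in no stimulated list were found at 6 loci, none on a protein-coding gene and all with another copy, with a median GC content of 37.3%. Of these, 4 lay in the array on chromosome 5. A stimulated list had a narrower peak at all 6.

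**Figure D5:**
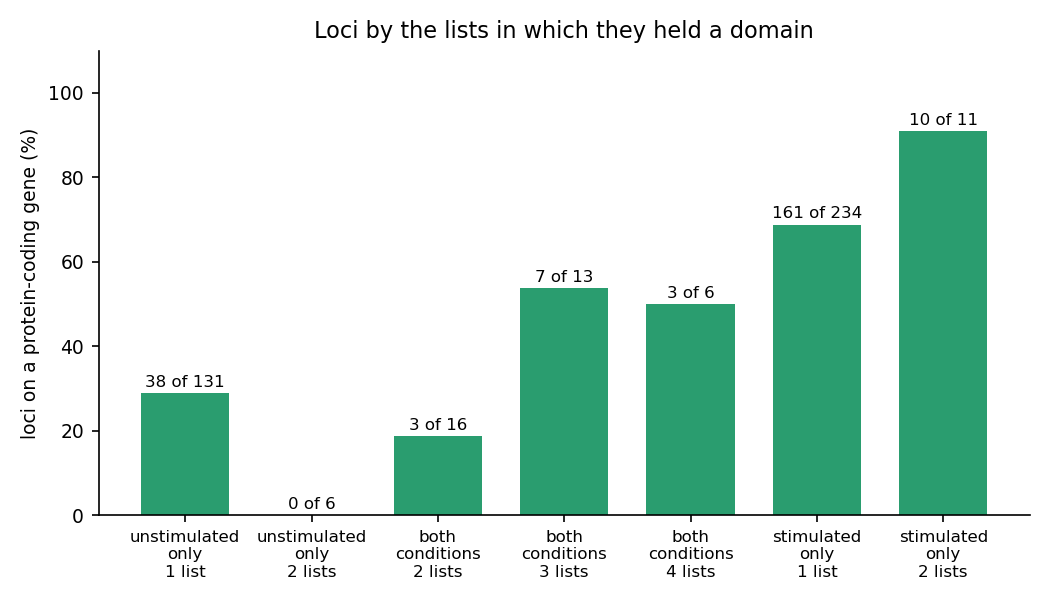
Percent of loci on a protein-coding gene, by the conditions and the number of lists with a domain there; the numbers above the bars are counts. The share is 10 of 11 for loci with domains in both stimulated lists only and 0 of 6 for both unstimulated lists only.

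Domains present in all 4 lists were at 6 loci: 4 in the array on chromosome 5, 1 on *Tmem267* on chromosome 13 and 1 in *Mid1* on chromosome X. In unstimulated replicate 1 the array locus at chr5:15457783-15472045 was the widest domain of any list, at 14263 bp, and the same locus held the widest domain of unstimulated replicate 2 at 9025 bp. Stimulated domains there were 7502 and 6860 bp wide. At *Mid1*, a ubiquitin ligase gene that spans the border of the pseudoautosomal region, the widths were 2624, 3980, 4015 and 3913 bp. Domains in unstimulated replicate 2 and both stimulated lists, but not in unstimulated replicate 1, were at 11 loci. Among them were *Acta1*, *Myh4*, *Plin4*, 2 places in *Ttn*, *Neat1* and the microRNA gene *Mir133a-2*.

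Of the 10 widest domains of each list, 1, 2, 3 and 8 lay on protein-coding genes. In stimulated replicate 2 the 8 were on *Myh4*, *Ttn* (3 domains), *Plin4*, *Xirp1*, *Trim63* and the neighbours *Cldn15* and *Fis1*. *Trim63* codes for the muscle ubiquitin ligase MuRF1, and its widest domain was 4742 bp. The domain of 5083 bp on *Cldn15* and *Fis1*, a mitochondrial fission gene, had no peak in any other list. With the 63 widest peaks taken from each list, a choice made after seeing the data, 14.3%, 31.7%, 42.9% and 76.2% lay on genes. For 9 of the 10 widest domains of stimulated replicate 1 and 9 of stimulated replicate 2 the other stimulated list had a peak. An unstimulated list also had a peak at 10 and 8 of them, and a domain at 7 and 6, so presence at these places was mostly not limited to stimulated muscle.

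Noncoding RNA genes were also covered. *Neat1* (ENSMUSG00000092274.3, chr19:5824708-5845478, minus strand), the RNA that builds nuclear paraspeckles, held 0, 2, 2 and 2 domains, and peaks covered 9.25%, 46.0%, 61.4% and 38.7% of it. Near its start, at chr19:5840071-5845151, only the stimulated lists had domains, 4922 and 3010 bp wide. Unstimulated replicate 1 had 2 narrower peaks there, and unstimulated replicate 2 had none. *Mir133a-2* (ENSMUSG00000065460.1, chr2:180398379-180398482, plus strand), the gene of a microRNA of muscle, lay wholly inside domains of 6656, 4655 and 4484 bp in unstimulated replicate 2 and stimulated replicates 1 and 2, and had no peak in unstimulated replicate 1.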

How the data were processed

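Each of the 4 samples, 2 stimulated and 2 unstimulated pools, had its own list of peaks, so replicates had not been pooled. Per the methods and the submitters' processing notes, the authors aligned reads with BWA to mm10, removed reads mapping to several places, scaled replicates down to the smaller one and called broad peaks against input with MACS2 2.1.1. The deposited values per peak are a fold enrichment (a ratio to input) and the −log10 of p and q. The display score was not used. Read counts were not analysed here, so depth and counting error are unknown, and a place without a peak is not shown to lack the mark.

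Peaks wider than 2000 bp were taken as domains. They were overlapped by at least 1 bp with the 21938 protein-coding genes of GENCODE M21 on chromosomes, using Python 3.11.15, numpy 2.4.6 and pandas 2.3.3. Domains of all lists that overlapped were merged into loci, and loci within 500000 bp into clusters of at least 4. Other copies (at least 90% identity over at least 50% of a peak) were searched in the genome with minimap2 2.31, after samtools 1.23.1 had indexed it. RefSeq promoter windows of 250 bases came from GRCm38.p6. Conditions were compared by exact permutation tests (scipy 1.17.1, two-sided), and the scripts were tested on simulated data. Unstimulated muscles came from the stimulated mice, so the conditions are not independent, and the sources used here do not say whether the pools within a condition are separate mice. The p-values measure only the spread between these samples.

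Genes were named if they lay under the 10 widest domains of a list, were covered for at least 90% by 1 domain, had domains in 2 or more lists or were members of a gene list with a domain. Genes covered for at least 50% were named after their values were seen. Some genes and gene lists are not reported here. The domains, gene lists and rules were chosen with earlier results of these data known. Alternatives were widths over 1500 and 3000 bp, a −log10 p of at least 3, joining of peaks within 1000 bp, autosomes only, all annotated genes, genes extended by 5000 bp, overlap of at least 50% of a domain, lists cut to 9094 peaks, each replicate left out and a replicate block. Leaving out domains with another copy, taking the 63 widest peaks of each list, and leaving out lists for exons, starts and domains without copies were added after seeing the data.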

Additional observations from a re-analysis of the deposited data

How the results depend on the processing

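The higher share of domains on genes after stimulation, 29.7 percentage points, kept its direction under every alternative run for it. With no list left out, and lists of equal length aside, the difference lay between 20.99 (width over 1500 bp) and 36.5 (the 63 widest peaks). It was 15.5 to 44.0 with 1 list left out. With lists of equal length the shares were 17.6% and 32.7% in the unstimulated lists and 53.7% and 72.7% in the stimulated ones. For domain bases in genes the difference was 30.0 points, and 14.7 to 45.3 with 1 list left out. The number of domains did not hold up. Its ratio of 1.64, stimulated over unstimulated, became 0.901 for widths over 3000 bp, 0.942 with lists of equal length and 0.817 for peaks with −log10 p of 3 or more, but 2.64 without copies, and ranged from 0.663 to 2.61 with 1 list left out. The difference in the share of peaks that are domains was −0.0339 points, but 0.300 at 1500 bp, 0.0474 on autosomes and −1.67 for peaks with −log10 p of 3 or more, and −0.341 to 0.273 with 1 list left out.

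Counts moved with the rules. The 245 stimulated-only loci became 1070 over 1500 bp, 30 over 3000 bp and 24 for peaks with −log10 p of 3 or more, and 34 to 262 with 1 list left out, the lowest without stimulated replicate 2. The 137 unstimulated-only loci became 532, 42 and 47 under these settings, 84 without copies, and 67 to 150 with 1 list left out. Stimulated-only loci were thus the fewer over 3000 bp, at the stricter p and without stimulated replicate 2. Genes covered for at least 90% in a stimulated list numbered 6, but 2 over 3000 bp, 16 among all annotated genes and 2 to 6 with 1 list left out. In unstimulated lists there was 1, but 7 among all annotated genes and 0 to 1 with 1 list left out. Overlap between the unstimulated replicates, 47.0%, fell to 19.6% when at least 50% of the domain had to overlap and to 23.3% without copies, but was 68.2% over 3000 bp. Between the stimulated replicates, 45.0% became 29.5%, 46.6% and 79.9%. The cause was not tested.

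With the replicate number as a block the ratio of numbers was 1.55 and the differences were 29.7, 30.0 and −0.0339 points. Within numbers 1 and 2 the ratio was 0.741 and 2.36, the share of peaks −0.357 and 0.289 points, and the share on genes 25.2 and 34.2 points. Unstimulated muscles came from stimulated mice, but the sources do not say that a number marks the same mice. Deviations of same-numbered samples correlated at −0.0612 over 417 loci, which with 2 numbers does not settle whether they are pairs, and the longer list of each condition is the one numbered 2. The lists hold no counts, 2 samples against 2 cannot reach a p below 0.33, and most stimulated-only loci rest on stimulated replicate 2.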

Other observations

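Further clusters of domains, each of at least 4 loci, differed between the lists. On chromosome X, chrX:31144145-31771298 held 11 domains of unstimulated replicate 1 and none of the other lists. At chr17:13205126-13424005 unstimulated replicate 2 had 5 domains and stimulated replicate 1 had 1. At chr16:3241777-3272181 there were 5 domains of unstimulated replicate 1 and 1 of unstimulated replicate 2. The cluster at chr7:106238929-106277063 was shared, with 3, 2, 4 and 3 domains in unstimulated replicates 1 and 2 and stimulated replicates 1 and 2.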
